A study of Mus musculus with 14 samples.

Results

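Cytosolic ribosomal protein genes encode the proteins of the large (*Rpl*) and small (*Rps*) ribosomal subunits. The set was defined by GENCODE symbol (mm10): protein-coding genes named *Rpl* or *Rps* followed by a number and at most one of the letters a, x or y, plus *Rplp0*, *Rplp1*, *Rplp2* and *Rpsa*. The rule gave 76 genes on 19 chromosomes, 14 of them on chromosome 7, with 46 large and 30 small subunit genes. Of these, 75 had an annotated start site in a captured HindIII fragment (a bait), out of 19001 protein-coding genes with a bait. *Rpl17*, a large subunit gene, had none. The 75 genes occupied 88 of 17685 protein-coding baits: 63 genes lay in 1 bait, 11 in 2 and 1 in 3. Other protein-coding genes shared 35 of these 88 baits, and the contacts of a shared bait cannot be assigned to either gene.

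Promoter capture Hi-C was performed on sorted cranial neural crest cells of the mouse embryo. At E10.5 these came from 4 facial regions, abbreviated FNP (frontonasal), Mx (maxillary), Md (mandibular) and PA2 (the arch behind them, second in order), and at E12.5 and E14.5 from the pinna, the outer ear. All of these were wild-type for *Hoxa2* and carried Wnt1::Cre;ROSA-RFP, in which the *Wnt1* promoter drives Cre in premigratory neural crest progenitors and RFP-positive cells are sorted. The seventh condition was PA2 at E10.5 from *Hoxa2* EGFP/EGFP knockout embryos, whose cells were sorted by EGFP, so genotype, reporter and sort gate differ together between knockout and wild-type PA2. Each condition had 2 libraries, made from pooled embryos of both sexes on a mixed C57Bl/6J;CD1 background, and the E14.5 tissue was dissociated with papain where all other tissue was treated with trypsin. The *Hoxa2* genotype, cell identity and expression of the ribosomal protein genes could not be checked, because the values are contact scores and not RNA levels.

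Ribosomal protein genes are known for being transcribed in essentially all growing cells, and their products assemble with ribosomal RNA in the nucleolus. Many have compact promoters in which transcription starts within a run of pyrimidines, so that their mRNAs carry the 5′ terminal oligopyrimidine tract through which their translation is controlled. Promoter capture Hi-C asks which distant fragments are found ligated to such a promoter more often than distance predicts.

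A contact is a pair of fragments on the same chromosome listed with a CHiCAGO score of at least 5, the lowest score in the tables. The libraries listed 113670 to 186248 such pairs, and the 2 knockout libraries had the fewest (113670 and 120854). Md replicate 1 and E12.5 pinna replicate 2 stood apart, with 46.5% and 62.7% of all their listed pairs joining different chromosomes against 2.64% to 5.61% in the other 12. Their file names describe them as merged, so results that change without these libraries are given both ways. Read depth is not given in the tables, and the number of listed pairs stands in for it. The study's methods call the 2 replicates of a condition biologically independent, while the labels do not tie libraries to litters, and p-values measure the spread between these libraries.

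The start sites of members that the results turn on are shown first, because they lie in the captured fragments. Each stretch runs 40 bases before to 20 bases from the annotated first base (mm10, GRCm38.p6, first RefSeq start site, or the GENCODE 5′ end for *Rpl36*). Capitals mark CGGAAG, the core letters of ETS-type sites, on either strand, and any run of 8 or more C or T within 5 bases of the first base. The first 3 are from highly contacted baits, the *Rpl36* bait had fewer contacts in pinna than at E10.5, and the last 2 are from baits with almost no contacts.
Rps27, chr3:90213629-90213688, minus strand: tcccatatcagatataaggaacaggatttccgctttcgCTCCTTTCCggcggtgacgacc
Rpl41, chr10:128549149-128549208, minus strand: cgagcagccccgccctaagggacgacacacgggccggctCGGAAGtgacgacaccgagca
Rps9, chr7:3704001-3704060, plus strand: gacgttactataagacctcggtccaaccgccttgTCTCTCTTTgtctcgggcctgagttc
Rpl36, chr17:56613376-56613435, plus strand: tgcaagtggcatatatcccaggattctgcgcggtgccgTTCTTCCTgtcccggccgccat
Rpl35a, chr16:33056413-33056472, plus strand: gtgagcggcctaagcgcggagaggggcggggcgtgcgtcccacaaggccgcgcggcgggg
Rpsa, chr9:120127726-120127785, plus strand: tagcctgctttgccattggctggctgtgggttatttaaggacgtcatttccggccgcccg

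Both kinds of letters were more frequent at members than at other promoters. RefSeq windows from 250 bases before to 50 bases after the start site were at hand for 56 members. CGGAAG or its reverse complement lay in 62.1% of the 66 member windows and in 21.7% of 20150 protein-coding windows. A run of 8 or more C or T across the start site was found in 33.3% of member windows and 9.82% of all windows, while TATAAA lay in 9.09% and 12.1%. The letters did not track contact number in a simple way: the median bait mean was 5.50 contacts for the 39 genes with CGGAAG and 8.07 for the 17 without, and both groups included baits at 0.429.

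Contact number varied over 2 orders of magnitude within the set. The mean over the 14 libraries was as low as 0.429 contacts (*Rpsa* and *Rpl35a*) and reached 52.1 for *Rps27*, with a median over the 88 baits of 6.71 and quartiles of 4.14 and 14.7. All 17685 protein-coding baits had a median of 4.86 with quartiles of 2.36 and 10.2. Means of at least 20 contacts were found for 16 of the 88 baits (18.2%, against 9.77% of protein-coding baits), and means under 3 also for 16 (18.2% against 32.0%). The 8 most contacted baits held 32.0% of all member contacts. Other gene groups of housekeeping function had similar medians, 7.18 for mitochondrial ribosomal proteins, 8.29 for proteasome subunits and 6.71 for translation factors. Collagen gene baits, at 6.25, were also near the members, so this level was not particular to housekeeping groups. Keratin gene baits, which lie in dense clusters, had 19.1. Ribosomal protein gene baits had more protein-coding genes within 500 kb (median 21.5) than protein-coding baits as a whole (16), at a slightly shorter bait length (median 5601.5 against 5958 bp). The part of gene density and bait length in the contact numbers was not tested.

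**Figure D1:**
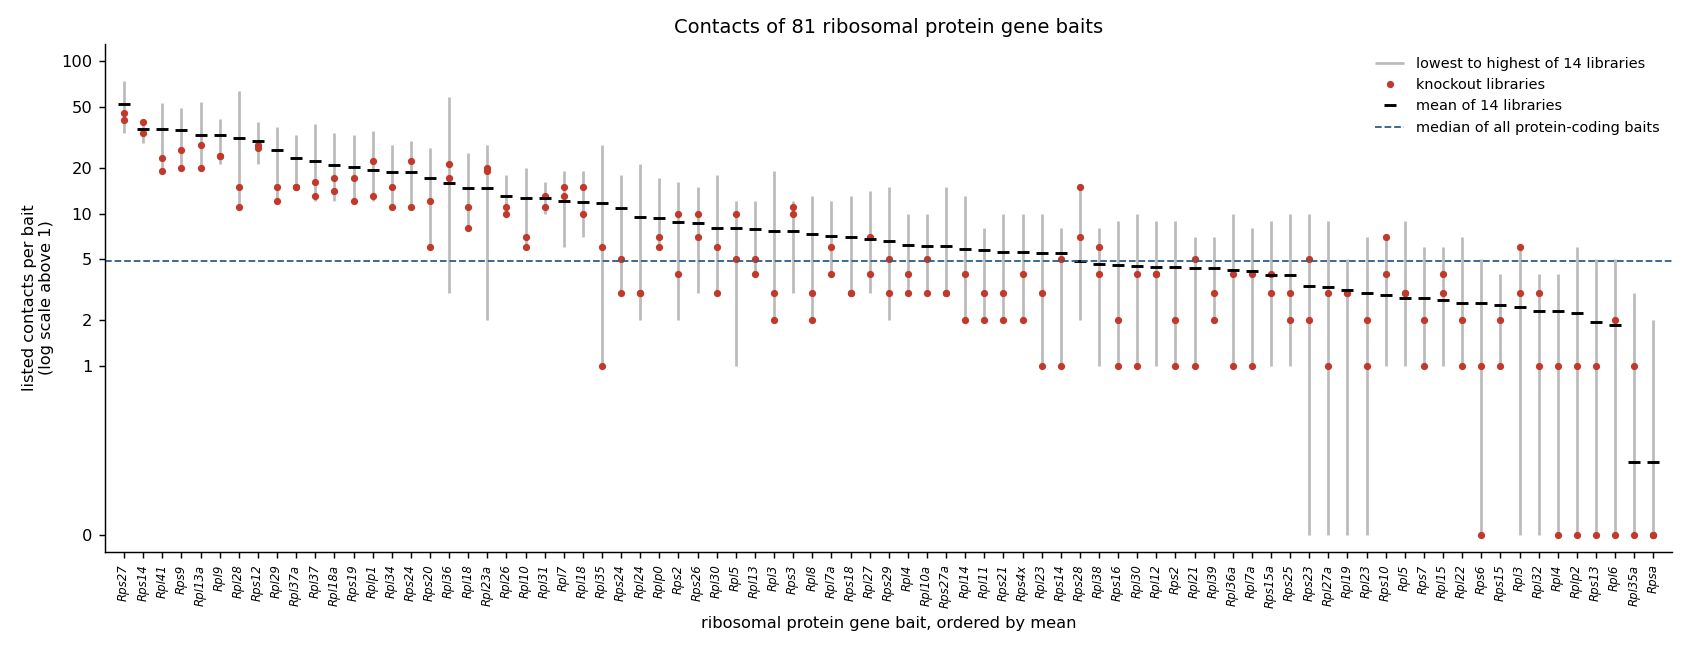
Listed contacts per bait (log scale above 1) for 81 of the 88 ribosomal protein gene baits ordered by their mean, with genes of several baits shown once per bait. Grey lines span the 14 libraries, black marks are their means, red points are the 2 knockout libraries and the dashed line is the median of all protein-coding baits (4.86 contacts). *Rps27* stands at a mean of 52.1, and *Rpsa* and *Rpl35a* at 0.429.

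Among large subunit genes, *Rpl41*, which encodes the smallest ribosomal protein, had the most contacts, 19 to 53 per library (mean 35.8). *Rpl13a* and *Rpl9* followed with a mean of 32.8 each, and *Rpl28* with 31.3. All of these baits are shared, *Rpl41* with *Zc3h10*, *Rpl13a* with *Flt3l* and *Gm45713*, *Rpl9* with *Lias* and *Rpl28* with *Tmem238*. Their contacts therefore cannot be assigned to the ribosomal protein gene. The large subunit bait with the highest mean that is not shared was that of *Rpl29* (26.2). The range of *Rpl28* was wide, from 11 and 15 contacts in the knockout libraries to 64 in Md replicate 1. The least contacted large subunit baits were those of *Rpl35a* (0 to 3 contacts), *Rpl6* (0 to 5, mean 1.86), *Rpl32* and one of the 2 *Rpl4* baits (mean 2.29 each). The 49 large subunit baits outside the stalk had a median of 7.07.

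Among small subunit genes, *Rps27*, which encodes a zinc finger ribosomal protein, had 34 to 74 contacts (mean 52.1), *Rps14* 29 to 42 (mean 36.0 for its main bait) and *Rps9* 20 to 49 (mean 35.1). The *Rps27* bait is shared with *Rab13* and the *Rps9* bait with *Mboat7* and *Tsen34*, while the main *Rps14* bait is not shared. *Rps14* varied less than its neighbours in this order: its SD between libraries was 3.26 contacts, against 11.5 for *Rps27* and 9.74 for *Rps9*. *Rpsa*, which encodes the laminin receptor related protein of the small subunit, had no contact in 10 of 14 libraries and at most 2 in any. *Rps13* had 0 to 5 contacts. The median of the 36 small subunit baits was 6.36.

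The 3 genes of the ribosomal stalk, whose acidic P proteins recruit translation factors, spread over the whole range. The *Rplp1* bait had 12 to 35 contacts (mean 19.4), the *Rplp0* bait a mean of 9.36 and the *Rplp2* bait 0 to 6 (mean 2.21).

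Members linked to inherited anaemia or to patterning phenotypes also lay on both sides of the median. *Rps19*, the gene most often mutated in Diamond-Blackfan anaemia, had 12 to 33 contacts (mean 20.4). *Rpl5* and *Rpl11*, whose products bind MDM2 when ribosome assembly fails, had means of 8.07 and 2.79 for the 2 *Rpl5* baits and 5.79 for *Rpl11*. *Rpl38*, which is mutated in the Tail-short mouse with its axial skeletal defects, had 1 to 8 contacts (mean 4.64), and *Rpl24*, the Belly spot and tail gene, 2 to 21 (mean 9.50). *Rps7*, *Rps6* and *Rpl22* had means of 2.79, 2.57 and 2.57. *Rpl10*, on the X chromosome, had 6 to 20 (mean 12.6). Relatives outside the rule had means of 6.79 for *Rpl3l*, 5.50 for *Fau* (fused to S30), 1.00 for *Rps27l* and 0.786 for *Rpl10l*.

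Contacts of ribosomal protein genes had a shorter median distance than those of all protein-coding baits in every library. It was 239 to 475 kb per library, against 299 to 688 kb over protein-coding baits, and the highest value of both lists came from E12.5 pinna replicate 2. The other end was itself a bait for 32.2% to 37.9% of member contacts and for 23.2% to 29.6% of protein-coding contacts. Functionally similar lists overlapped the member ranges: translation factor baits had median distances of 244.8 to 575 kb and 34.8% to 44.4% of other ends on a bait, proteasome subunit baits 282 to 632 kb and 27.1% to 38.7%, and mitochondrial ribosomal protein baits 296 to 597 kb and 25.9% to 34.7%. Single members differed far more than these medians. *Rpl38* and *Rpl10* had median distances of 32.9 and 53.9 kb. Medians of about a megabase were found for *Rpl37* (1117 kb), *Rpl37a* (1099 kb), *Rps24* (1086 and 1116 kb for its 2 baits), *Rps9* (1083 kb) and *Rplp1* (995 kb). The longest medians were those of *Rps29* (4070 kb), *Rps15a* (1609 kb), *Rps7* (1290 kb) and *Rps18* (1134 kb).

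Stability over the 7 conditions was next described by counting libraries per contact. The 88 baits took part in 4644 distinct contacts (a pair of 2 member baits counts for each), of which 2631 (56.7%) were listed in 1 library only, 699 (15.1%) in at least 7 and 116 (2.50%) in all 14. Over protein-coding baits these shares were 61.8%, 11.4% and 2.05%, with 2.18% in all 14 for mitochondrial ribosomal proteins, 1.93% for proteasome subunits and 3.42% for collagens. The contacts in at least 7 libraries made up 51.7% of all member listings, against 44.8% for protein-coding baits. Contacts in all 14 libraries had a median distance of 152 kb (207 kb for protein-coding baits) and those in 1 library 2121 kb (1911 kb). Within distance classes the shares were near each other: under 100 kb 9.59% of member contacts and 8.42% of protein-coding contacts were in all 14 libraries, and from 100 to 500 kb 3.57% and 3.66%. None of the 1476 member contacts over 2 Mb was in all libraries, and only 69 of 262075 protein-coding contacts over 2 Mb were (0.0263%). Most contacts, by count, were thus not shared between libraries. Pairs of libraries from the same condition shared a median of 50.7% of member contacts (as a share of the list of either library, taken in turn) against 47.6% for libraries of different conditions. Over the contacts of all baits these medians were lower and further apart, 45.4% and 40.1%.

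**Figure D2:**
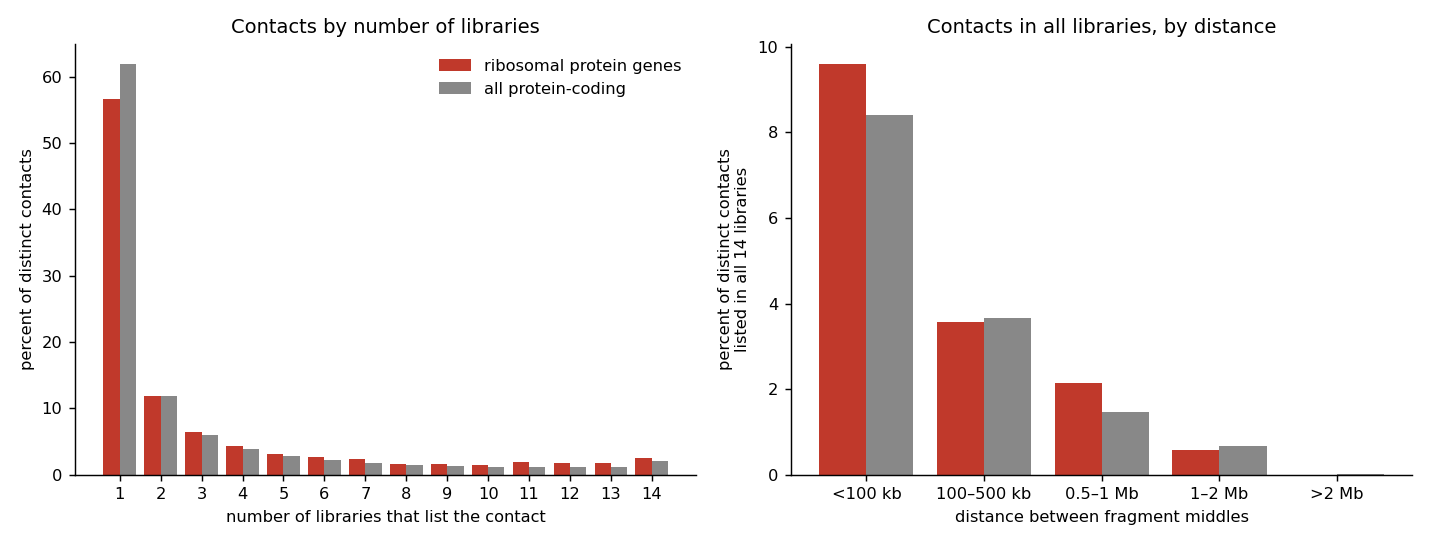
Left, percent of distinct contacts by the number of libraries (1 to 14) that list them, for ribosomal protein genes (red) and all protein-coding baits (grey). Right, percent of distinct contacts listed in all 14 libraries by distance between fragment middles. Members have 56.7% of contacts in 1 library against 61.8%, and the share in all libraries falls with distance in both lists.

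The 116 contacts in all 14 libraries came from 33 baits (37.5% of member baits, against 27.3% of protein-coding baits), and 40.5% of them ended on another bait. The comparison lists had similar or higher shares of baits with such a contact. These were 36.5% for mitochondrial ribosomal proteins, 37.7% for translation factors, 43.9% for proteasome subunits, 40.5% for collagens and 44.9% for keratins. *Rps14* had 13, *Rpl13a* and *Rps12* 8 each, *Rpl26* and *Rpl31* 6 each, and *Rpl28* and *Rplp0* 5 each. The *Rps12* bait is shared with *Slc18b1*. The highest mean score, 39.7, joined the *Rps3* bait to the promoter of *Neu3*, a membrane sialidase gene 345 kb away. Its scores were 38.5 and 45.8 in FNP, 35.4 and 35.8 in Mx, 33.4 and 75.5 in Md, 30.2 and 54.0 in PA2, 43.4 and 41.0 in the knockout, 28.1 and 35.8 in E12.5 pinna and 23.8 and 35.8 in E14.5 pinna. The highest and lowest scores both came from conditions whose other replicate lay near 35, and the conditions overlapped.

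Other contacts in all libraries also reached promoters of genes with unrelated functions. *Rpl26* contacted 2 fragments with start sites of *Pfas*, a purine synthesis gene, at 88.5 kb (mean score 37.8, range 28.7 to 58.4) and 107 kb (mean 20.6). The second *Rpl4* bait is shared with *Snapc5* and does not hold the 5′ end of *Rpl4*. It contacted *Tipin*, a replication fork gene, at 103 kb (mean 27.0, range 22.4 to 34.5). *Rpl29* contacted *Poc1a*, a centriole gene, at 149 kb (mean 17.6). The *Rpl10* bait also holds start sites of *Dnase1l1* and of *Taz*, a cardiolipin remodelling gene. It contacted a fragment with another *Taz* start site at 15.9 kb (mean 17.1), which is thus not a contact with the promoter of a separate gene. The longest contact in all libraries joined *Rps24* to *Ppif*, the gene of mitochondrial cyclophilin D, at 1198 kb, with scores of 5.20 to 16.4. *Rps14* had its strongest contact at 207 kb (mean 17.1). *Rps9* reached a fragment at 772 kb (mean 17.1, range 7.11 to 30.8) and *Ppp1r12c*, a myosin phosphatase subunit gene, at 800 kb (7.89 to 18.4).

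**Figure D3:**
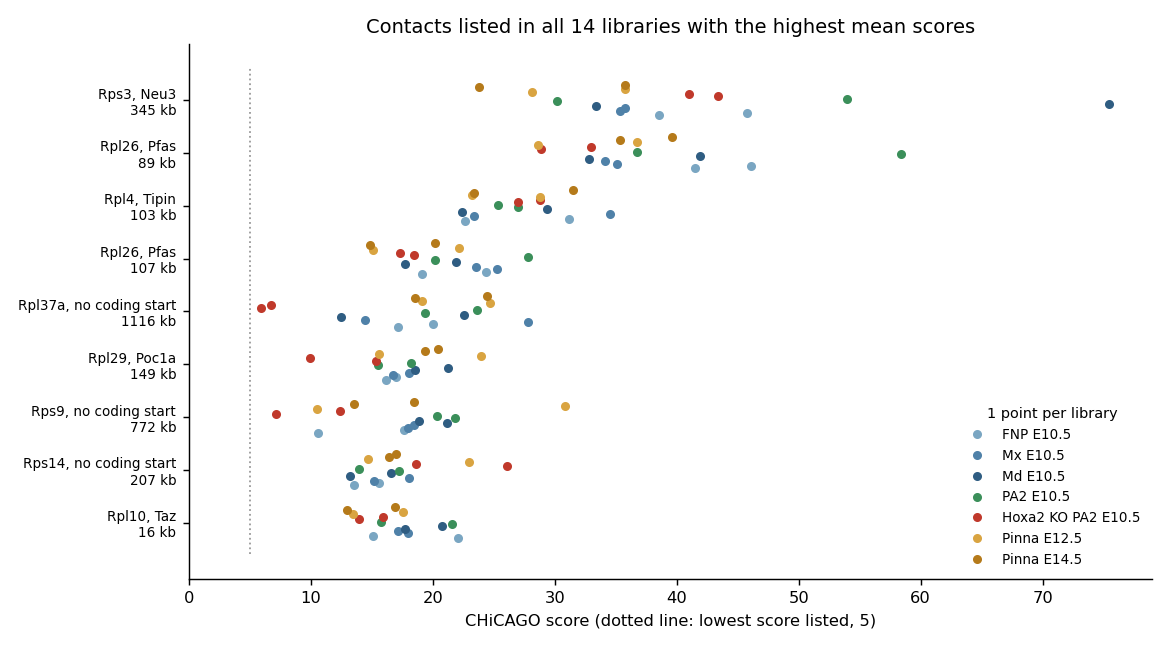
CHiCAGO scores in each of the 14 libraries (1 point per library, coloured by condition) for 9 of the 10 ribosomal protein gene contacts listed in all libraries with the highest mean scores, at most 2 per bait. Labels give the bait gene, the protein-coding genes with a start site in the other end and the distance, and the dotted line is the lowest listed score of 5. Conditions overlap for most contacts, and the knockout libraries (red) have the lowest scores for *Rpl37a*.

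The *Rpl37a* bait (chr1:72708308-72714150) had the strongest of the contacts near a megabase, with chr1:73825901-73828251 at 1116 kb, where no start site is annotated. The mean score was 18.4. The 12 wild-type libraries scored 12.51 to 27.8 and the knockout libraries 5.96 and 6.70, so the groups did not overlap. A second fragment 1153 kb away was also in all 14 libraries, at 5.05 to 15.1, and there the knockout libraries (11.9 and 14.9) lay among the highest. Both ends of the 1116 kb contact hold CCA, any 2 bases, AG, any 2 bases and GGC, core letters of the motif of the architectural protein CTCF, shown here in capitals with 14 bases on each side. A stretch from a called *Rps27* contact end, 157 kb from its bait, is set below them.
Rpl37a bait, chr1:72710720-72710759, plus strand: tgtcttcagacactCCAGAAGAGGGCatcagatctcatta
Rpl37a contact end, chr1:73826483-73826522, minus strand: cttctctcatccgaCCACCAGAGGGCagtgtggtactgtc
Rps27 contact end, chr3:90370741-90370780, plus strand: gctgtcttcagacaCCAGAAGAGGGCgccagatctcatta
The letters lie on opposite strands at the 2 ends of the *Rpl37a* contact. The stretches of the *Rpl37a* bait and the *Rps27* end are alike beyond the core, and such stretches recur across the mouse genome in B2-family SINE repeats. Over both strands they were found in 44.0% of the 109 other ends of member contacts in all libraries, 36.0% of the 11559 such ends of protein-coding baits, 34.2% of other ends of member contacts in 1 library, and 47.7% of member baits (40.1% of protein-coding baits). The ends differed in length (median 4417 bp for members and 3482 bp for protein-coding baits), and per kilobase the motif count was 0.145 and 0.124. A match describes the sequence only, and CTCF binding was not measured in these files.

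Contacts of ribosomal protein genes with each other were counted, without a count for other gene lists, so whether their number is low was not tested. In total 11 same-chromosome pairs joined baits of different members, 7 of them in 1 library. The one pair in at least 7 libraries joined *Rps26* and *Rpl41* at 83.4 kb on chromosome 10, with listed scores of 5.82 to 9.80, in both replicates of FNP and in 1 replicate each of Mx, Md, PA2, the knockout and E12.5 pinna. Pairs between the chromosome 7 members *Rps9*, *Rpl28*, *Rps16*, *Rps19*, *Rpl18* and *Rpl13a* were listed in at most 2 libraries.

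The 7 conditions were then compared with limma on centred log2(contacts + 1) per bait, over 17134 baits with a mean of at least 2 contacts, among them 83 of the 88 member baits. Counts of contacts differed between conditions for 2 members, among them *Rpl36* (adjusted p = 0.0184), which is 2 of 83 against a background of 5.18% of all baits, and 20 members had an unadjusted p under 0.05. Without the knockout libraries no member was called (background 2.46%), and without Md replicate 1 and E12.5 pinna replicate 2 there were 4 (background 6.75%). The median range between condition means was 1.12 on the log2 scale for members and 1.23 for all baits. The share of members called was below the background. On simulated data this fit recovered 41% of 4-fold changes, so a bait that was not called may still differ.

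The knockout was compared with wild-type PA2 to ask whether loss of *Hoxa2* went with other contact numbers of these promoters. Of 83 member baits 1 was called, lower in the knockout (background 0.519%, with 0.508% of baits called lower and 0.0117% higher), and 10 had an unadjusted p under 0.05. The count was 0 without either Mx library, without either PA2 library, with contacts limited to 2 Mb and with a score threshold of 10. *Rpl28*, a large subunit gene, had 39 and 47 contacts in FNP, 23 and 44 in Mx, 64 and 29 in Md, 21 and 39 in PA2, 26 and 17 in E12.5 pinna and 28 and 35 in E14.5 pinna, against 15 and 11 in the knockout. Both knockout libraries lay below all wild-type libraries, but the difference from PA2 was not called (-0.87 on the log2 scale, SE 0.40, limma adjusted p = 0.414). *Rpl37a* had 15 contacts in each knockout library and 19 to 33 in the wild-type libraries, a difference from PA2 of -0.50 (SE 0.30, adjusted p = 0.563).

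Contact numbers of several other members were also lowest in the knockout. Over all members the median difference from wild-type PA2 was -0.21 on the log2 scale, against 0.02 for all baits, with 50 of 83 members lower. For 10 of 83 baits (12.05%) both knockout libraries lay below all 12 wild-type libraries, and for none did they lie above. The same held for 7.67% and 0.671% of all tested baits. Among the 10 were baits of *Rpl3*, *Rpl8*, *Rpl10*, *Rpl28*, *Rpl29*, *Rpl37a*, *Rps24* and *Rps27a*. *Rpl3* and *Rps24* each have another tested bait that did not follow this order. That of *Rpl3* had 6 and 3 contacts in the knockout and 0 to 4 in wild type. That of *Rps24* had 11 and 22 in the knockout and 11 to 30 in wild type. Member baits had 718 and 742 listed pairs in the knockout and 929 to 1203 in the wild-type libraries, which is 0.632% and 0.614% of all same-chromosome pairs against 0.536% to 0.757%. The knockout libraries also listed the fewest pairs of all libraries, and that value moves with these counts. Its part in them was not tested.

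*Rpl36*, a large subunit gene on chromosome 17 (bait chr17:56610089-56616707), had fewer contacts in pinna than at E10.5. It had 9 and 58 contacts in FNP, 15 and 13 in Mx, 19 and 24 in Md, 16 and 11 in PA2 and 17 and 21 in the knockout, and only 7 and 5 in E12.5 pinna and 3 and 4 in E14.5 pinna. All 10 E10.5 libraries were higher than the 4 pinna libraries. FNP replicate 2 stood far above its partner. The direct comparison of E12.5 pinna with PA2 gave -1.21 (SE 0.52, adjusted p = 0.338), and the difference over all conditions was not called without the knockout libraries, without knockout replicate 2, or without either E14.5 library (highest adjusted p 0.0675). All pinna libraries lay below all E10.5 libraries for 2 of 83 member baits, *Rpl36* included, against 0.87% of all baits, and no member had the opposite order (2.17% of all baits).

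**Figure D4:**
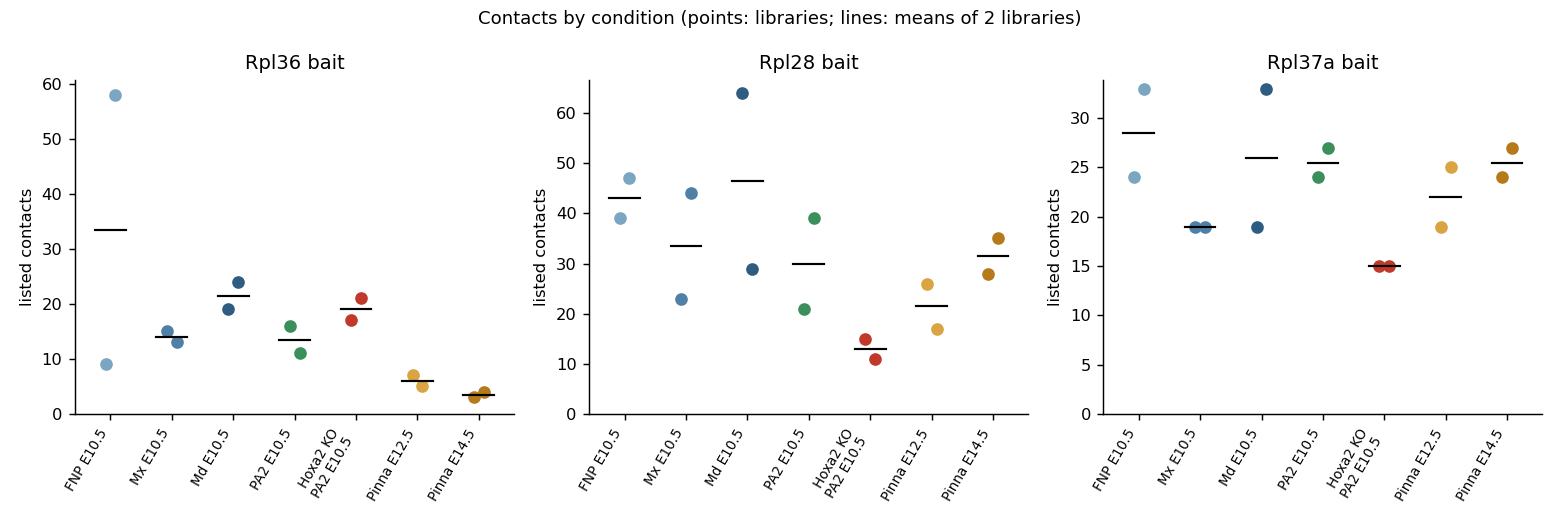
Listed contacts of the *Rpl36*, *Rpl28* and *Rpl37a* baits in the 7 conditions, with 1 point per library and lines at the means of 2 libraries. *Rpl36* is lowest in pinna (3 to 7), and *Rpl28* (11 and 15) and *Rpl37a* (15 in each library) are lowest in the knockout.

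No member was called in PA2 against FNP, Mx and Md together, where no bait at all was called (background 0%, 1 member at an unadjusted p under 0.05). None was called in E12.5 pinna against PA2 (background 0.514%) or in E14.5 against E12.5 pinna (0.0875%). The median member differences in these 3 comparisons were -0.04, -0.11 and 0.04 on the log2 scale, against 0.03, -0.03 and 0.04 over all baits.

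Single contacts were compared with the same model on asinh scores, with an unlisted pair set to 0, over 87276 pairs listed in at least 7 libraries. Of 698 member pairs, 30 were called across the 7 conditions (4.30%, against a background of 5.02%), from 15 genes, and all 30, like 92.1% of all called pairs, had at least one condition in which neither library listed them. On simulated pairs without differences this fit made more calls than its threshold allows, so its adjusted p-values are too small and the calls are a description. Of the 30, 22 were unlisted in both knockout libraries (73.3%, against 58.0% of all called pairs), and 18, from 9 genes, were listed in all 12 wild-type libraries and in neither knockout library. Without the knockout libraries 8 member pairs were called (background 1.35%). Without Md replicate 1 and E12.5 pinna replicate 2 the number was 85 (background 10.4%).

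Of the 18 contacts missing from the knockout, *Rps27* (bait chr3:90210274-90213962, shared with *Rab13*) had 4, *Rpl29* 3 and *Rpl28* 2. *Rps27* with chr3:90362095-90363402, 151 kb away, had the smallest adjusted p (0.000483), with wild-type scores of 6.30 to 14.52, and the adjacent fragment at 157 kb scored 6.07 to 16.0. *Rps27* also contacted *Ints3*, an Integrator complex gene, at 222 kb (5.81 to 13.7). Its total number of contacts in the knockout (41 and 46) lay within the wild-type range.

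Some of the contacts unlisted in both knockout libraries were distant. The called member pairs had a median distance of 154 kb, against 203 kb for all tested member pairs. *Rpl34* lost a contact at 503 kb from the lists (wild-type scores 7.25 to 20.5), *Rps12* one at 685 kb (7.45 to 15.3) and *Rpl37a* one at 1148 kb (5.47 to 15.8). *Rpl29* was unlisted in the knockout with *Dusp7*, a phosphatase gene 56.4 kb away (6.24 to 11.9), and with *Wdr82* at 248 kb (6.29 to 10.54). *Rpl11* was unlisted with *Fuca1*, a lysosomal fucosidase gene, at 134 kb (5.47 to 11.0). *Rpl9* was unlisted in the knockout with a fragment 269 kb away (6.95 to 16.2), and with fragments at 186 and 273 kb it was unlisted in both FNP libraries and listed in all 12 others. An unlisted pair has a score under 5 and not a score of 0, so the sizes of these differences are not known.

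The count of lost contacts was compared over conditions. Of 163 member pairs listed in all 12 wild-type libraries, 18 (11.0%) were unlisted in both knockout libraries, against a background of 8.97% of 19624 pairs. For each of the 6 wild-type conditions the same count was 0 to 2 pairs (FNP 2 of 121, with a background of 0.472%; Md, E12.5 pinna and E14.5 pinna 1 each, with 0.172%, 1.37% and 2%; Mx and PA2 none, with 0.272% and 0.393%). The share lost in the knockout was thus close to the background for ribosomal protein genes. In the opposite direction, 27 of 4644 member contacts (0.581%, against 0.826% of protein-coding contacts) were listed in both knockout libraries and nowhere else, compared with 5 to 13 for the wild-type conditions.

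*Rpl36* had called contacts that were listed at E10.5 and not in pinna. Its contacts with chr17:56662335-56668676 at 52.1 kb (5.63 to 10.2) and chr17:56658798-56662256 at 47.1 kb (5.01 to 10.2) were listed in all 10 E10.5 libraries, knockout included, and in none of the 4 pinna libraries. The adjusted p-values were 0.0150 and 0.0222. *Rpl39*, on the X chromosome, had a called contact with a bait of *Ube2a*, a ubiquitin-conjugating enzyme gene 215 kb away, that was listed in all 12 libraries before E14.5 and in neither E14.5 pinna library (listed scores 6.03 to 10.3). The most stable *Rpl36* contact, with *Kdm4b*, a histone demethylase gene 287 kb away, was listed in 13 libraries, pinna included.

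**Figure D5:**
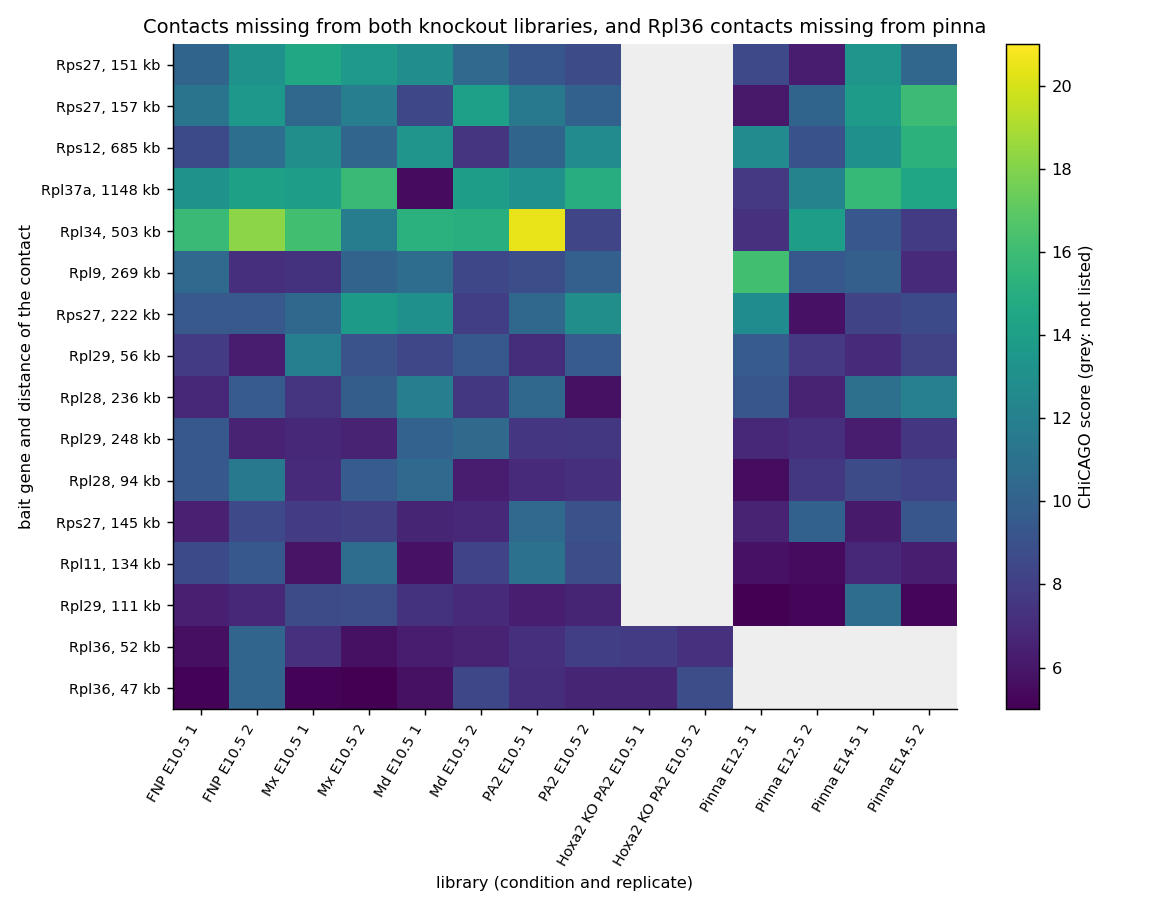
CHiCAGO scores by library of 14 of the 18 called ribosomal protein gene contacts listed in all 12 wild-type libraries and in neither knockout library, with the 2 called *Rpl36* contacts in the lowest lines. Each line is 1 contact with its bait gene and distance, colour is the score and grey means not listed. Listed scores run from 5.01 to 20.5, and the *Rpl36* contacts are missing from all 4 pinna libraries.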

How the data were processed

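Processed tables of promoter capture Hi-C from 14 libraries were used, 1 per library. Per the paper's methods the authors mapped reads with HiCUP and scored pairs with CHiCAGO. The submitters' processing notes name bcl2fastq 2.17 and GRCm38 (mm10). The deposited CHiCAGO score is on the authors' own scale, with pairs under 5 left out. Here the tables were joined to GENCODE start sites on the digest fragments. A pair of 2 baits counted for both. Baits (log2(contacts + 1), centred per library, mean of at least 2) and pairs (asinh score, at least 7 libraries) were fitted over all features with limma 3.58.1 in R 4.3.3 (one mean per condition, trended variance, Benjamini-Hochberg adjustment over all features, threshold 0.05). Both fits were tested on simulated data, where the pair fit called too many pairs. The bait F-test recovered 41% of 200 simulated 4-fold changes, and 87.7% of those in baits with a mean of at least 10 contacts. The knockout comparison recovered 38.5% and 80.8%. Changes in baits with few contacts were thus often missed. Pairs between chromosomes were left out of the fits. Sequences were read from GRCm38.p6 and RefSeq promoter windows with pysam 0.24.0. Members, gene lists and tests were chosen with earlier results of these data known. Named genes were the 8 most and 8 least contacted baits, called baits, the 10 strongest (at most 2 per bait) and 5 longest contacts in all libraries, the 10 called pairs with the smallest p, member pairs, members with no bait and 10 preset genes. Some members that this rule names are not reported here, in the text or the figures. Genes named outside that rule were chosen after their values were seen. Alternatives without the knockout libraries were added after seeing the data.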

Additional observations from a re-analysis of the deposited data

Results flagged for a closer look

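One contact between chromosomes, a class that the comparisons above leave out, recurred for a ribosomal protein gene. Md replicate 1 and E12.5 pinna replicate 2 listed 419 and 915 pairs joining a member bait to another chromosome, and each other library 7 to 23. A count without these libraries was not made. Of 1457 distinct pairs of this kind over all libraries, 1439 were in 1 library and 2 were in at least 7. Both involved the bait of *Rps2* (chr17:24716848-24718230, shared with *Rnf151*) and adjacent fragments in an intron of *Dock3* on chromosome 9, chr9:107083617-107084975 and chr9:107084976-107088051. Each was listed in 12 libraries, with mean scores over the 14 libraries of 28.5 and 31.0 (unlisted as 0) and highest scores of 83.8 and 65.8. The same 2 fragments were listed in at least 7 libraries with 16 chromosome 17 baits between 24422900 and 24718230, *Rps2* being the outermost, and most strongly with the *Tsc2* and *Nthl1* bait chr17:24630920-24634645 (means 350 and 321, in all 14 libraries). The cause was not tested.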

How the results depend on the processing

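PA2 against FNP, Mx and Md and E14.5 against E12.5 pinna had 0 called members under every alternative run. Members called over the 7 conditions numbered 0 without the knockout libraries, 1 with summed asinh scores, 5 without centring, 4 without the merged libraries, and 1 to 4 when single libraries were left out (1 without FNP replicate 1, Mx replicate 1 or knockout replicate 2, 4 without either E12.5 pinna library). The knockout comparison gave 0 at a score threshold of 10 and within 2 Mb, and 0 to 1 without single libraries. E12.5 pinna against PA2 gave 0 to 1, with 1 without E12.5 pinna replicate 1. Called pairs numbered 8 without the knockout libraries, 17 on unshared baits, 85 without the merged libraries and 37 to 69 without single libraries (69 without E12.5 pinna replicate 1). Where an arm kept 1 library, it was assumed to vary like the others. Replicate numbers did not pair libraries (correlations of deviations -0.06 to 0.17 over 21 pairs of conditions, 2 above 0.1), and with the replicate block 5 baits and 30 pairs were called. Median contacts per bait were 0.571 at a score of 10 and 4.86 with equal numbers of top pairs (6.54 to 6.96 without single libraries). The share in all libraries was 1.66% at a score of 10, 3.66% within 2 Mb, 3.49% without the merged and 3.67% without the knockout libraries (2.60% to 3.01% without single libraries). The median distance stayed at 269 to 275 kb without single libraries, and the share ending on a bait at 34.2% to 34.7%, or 44.98% at a score of 10. The causes were not tested. Read depth is unknown, scores under 5 are unseen, and 2 libraries per condition limit every comparison.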
